A study of Mus musculus with 13 samples.

Results

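Keratins are the intermediate-filament proteins of epithelial cells, and the whole mouse family as it appears in the count table was examined in bulk RNA-seq of CD45- thymic stroma. Members were all genes whose symbol is Krt followed by digits only, which gave 49 of the 53379 genes of the table. Keratin-associated proteins, pseudogenes and symbols ending in a letter (such as Krt6a, Krt6b, Krt33a and Krt33b) fall outside this rule, and so does Krt74, which GENCODE M21 annotates as a pseudogene. The libraries were made from polyA RNA of CD45- thymic cells of wild-type C57BL/6 mice aged 2 months. The 4 groups were steady state (mice given PBS, 4 libraries) and 3 time points that followed sublethal total body irradiation (TBI), namely day 1, day 4 and day 7, with 3 libraries each. The labels number the libraries of a group as replicates but do not say whether each came from 1 animal or from a pool, so the p-values below measure the spread between these libraries. The comparisons ask how the stromal keratins change as the irradiated young thymus is depleted and begins to recover.

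A keratin filament is built from pairs of an acidic type I and a basic type II chain, and epithelia are recognized by the pairs that they use. Simple epithelia use Krt8 with Krt18, the basal layer of stratified epithelia uses Krt5 with Krt14, and the layers above it in the epidermis use Krt1 with Krt10. In the thymus, cortical thymic epithelial cells (cTECs) are classically marked by Krt8 and Krt18 and medullary thymic epithelial cells (mTECs) by Krt5 and Krt14, while cornified keratins such as Krt10 mark the end-stage mTECs that resemble epidermis and gather in Hassall's corpuscles. Krt7, Krt8, Krt18 and Krt19 are also keratins of mesothelium, the cell layer that covers the organ.

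The 49 genes comprised 26 type I and 23 type II genes, and they lie in the keratin clusters of chromosome 11 (25 genes) and chromosome 15 (24 genes). Krt18 is the type I gene that lies in the type II cluster, next to Krt8. In GRCm38, GENCODE M21 places the protein-coding genes Krt5 at chr15:101707070-101712891 (minus strand), Krt8 at chr15:101996711-102004342 (minus strand), Krt18 at chr15:102028216-102032026 (plus strand), Krt14 at chr11:100203162-100207548 (minus strand) and Krt10 at chr11:99385254-99389364 (minus strand). The 120 bases before the RefSeq start (GRCm38.p6) of 4 of these genes are shown because they stand for the simple pair, the basal and the cornified keratins, whose levels moved differently below. They are written 5′ to 3′ on the strand of the gene, from chr15:101712906-101713025 for Krt5, chr15:102004343-102004462 for Krt8, chr15:102028096-102028215 for Krt18 and chr11:99389365-99389484 for Krt10, and capitals mark a match to 1 of the motifs named in the next paragraph.
Krt5: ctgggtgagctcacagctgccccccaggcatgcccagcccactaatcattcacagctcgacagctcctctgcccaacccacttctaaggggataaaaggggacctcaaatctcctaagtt
Krt8: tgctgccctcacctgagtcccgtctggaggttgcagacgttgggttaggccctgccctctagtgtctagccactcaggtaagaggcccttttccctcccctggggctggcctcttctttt
Krt18: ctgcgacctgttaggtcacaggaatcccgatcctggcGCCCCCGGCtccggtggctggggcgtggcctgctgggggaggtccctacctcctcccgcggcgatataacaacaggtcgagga
Krt10: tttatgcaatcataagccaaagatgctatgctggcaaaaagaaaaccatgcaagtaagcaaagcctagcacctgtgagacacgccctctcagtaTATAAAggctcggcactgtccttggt

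Motifs were searched on both strands of the 250 bases before the start of 36 promoters of 35 members that the RefSeq table holds. The TATA box letters TATAAA were present in 44.4% of keratin promoters and in 12.4% of all 32851 promoters of the table. Where the letters had to start 20 to 40 bases before the start on the strand of the gene, the shares were 36.1% and 1.99%. Krt10 had them at 26 bases before its start. The GC box letters GGGCGG were present in 5.56% of keratin promoters and 32.7% of all promoters. The AP-2 letters GCCNNNGGC, found in Krt18, were present in 13.9% and 13.7%, the AP-1 letters TGACTCA or TGAGTCA in 2.78% and 4.46%, and the FOXN1 core letters GACGC in 13.9% and 22.6%. These shares describe letters in a window and say nothing about binding.

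Total counts per library ran from 15721866 to 52056896. The stromal libraries held the defining markers of TECs, fibroblasts, endothelium and mesothelium, as well as some RNA of other origin. Thymocyte RNA was not fully depleted, since Ptprc, which encodes CD45, stood between 24.0 and 119 CPM at steady state (CPM, counts per 1000000 counts of the TMM-normalized library size), between 4.1 and 4.5 CPM on day 4, and at 21.6, 606 and 224 CPM in the day 7 libraries. Summed over 6 hematopoietic markers, the range was 117 to 435 CPM at steady state and 93.1 to 2238 CPM on day 7. All 6 were called higher on day 7 than on day 1, beside 3.68% of all genes. The 4 erythroid markers, which also moved with the time course, summed to 6477 to 12800 CPM at steady state, 1332 to 5421 CPM on day 1, 5.98 to 6.60 CPM on day 4 and 1024 to 2833 CPM on day 7. All 4 were called lower on day 4 than at steady state and on day 1, beside 0.240% and 1.07% of all genes. They were called higher on day 7 than on day 4, beside 2.77%. Their part in the keratin values was not tested. Pth, the parathyroid hormone gene, ranged from 2.9 to 518 CPM. Day 1 replicate 1 and day 4 replicates 2 and 3 stood apart from their sister libraries in Epcam, a surface protein of epithelium. They were at 14.0, 24.4 and 25.5 CPM, against 99.8 to 127 CPM in the other day 1 and day 4 libraries. Their Cdh1 (E-cadherin) was at 176, 204 and 204 CPM against 190 to 250. Epcam was also at 33.4 and 36.7 CPM in the steady-state libraries PBS d4 rep2 and PBS d7 rep2, and at 16.6 to 40.1 CPM on day 7. Below, the libraries low in Epcam are only the 3 named of days 1 and 4, and fits without them keep the other low libraries.

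Of the 49 keratins, 39 passed the filter on low counts, and the other 10, of which 9 are hair and root sheath keratins, had at most 19 counts in any library. A count was present in every library for 31 keratins. Levels were spread over a wide range, so that 28 members averaged under 1 CPM per kilobase of exon, 8 averaged over 10 and 5 over 100. Krt5, Krt8, Krt14, Krt17, Krt18, Krt19 and Krt7 together held between 92.3% and 97.6% of all keratin CPM per kilobase in each library.

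Per kilobase, the order of mean levels at steady state was Krt18 (291 ± 146, SD, n = 4), Krt8 (238 ± 132), Krt17 (230 ± 159), Krt19 (179 ± 90.7), Krt5 (136 ± 78.2), Krt14 (86.1), Krt7 (19.5 ± 2.38) and Krt10 (10.6 ± 5.84). The ranges of neighbours overlapped from Krt18 down to Krt14, and those of Krt14 and Krt7 did not. The exonic length used for Krt7 is 7055 bases, against 1400 to 2190 for the keratins above it, so its place depends on this length. In CPM without length, Krt7 (122 to 161) and Krt14 (101 to 234) overlapped at steady state. On day 4 the order was Krt18 (869 ± 184, SD, n = 3), Krt5 (503 ± 85.8), Krt8 (426 ± 69.1), Krt17 (379 ± 83.6), Krt19 (210 ± 46.1) and Krt14 (75.9 ± 13.1), so that Krt18 stood clear of Krt5 and Krt5 overlapped Krt8. On day 7, Krt18 (255 ± 68.6) and Krt19 (227 ± 61.2) were followed by Krt8 (165 ± 33.9), Krt17 (84.9 ± 28.6), Krt5 (82.4 ± 32.9) and Krt14 (43.6 ± 19.4). The range of Krt17 lay wholly below that of Krt8 there, and the ranges of Krt17, Krt5 and Krt14 overlapped.

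Keratin counts made up 0.228% ± 0.0901 (SD, n = 4) of the normalized library at steady state, 0.324% ± 0.0565 (n = 3) on day 1, 0.449% ± 0.0479 on day 4 and 0.166% ± 0.0328 on day 7. The day 4 libraries (0.406% to 0.501%) lay above every other library, and the day 7 libraries (0.146% to 0.204%) lay below every day 1 and day 4 library but overlapped steady state (0.146% to 0.337%). Type I chains outweighed type II chains in every library, with a ratio of CPM per kilobase of 2.13 ± 0.419 at steady state, 2.06 ± 0.477 on day 1, 1.62 ± 0.141 on day 4 and 2.26 ± 0.277 on day 7. In bulk samples, fewer cells of a type and less RNA per cell cannot be told apart, and this holds for every level below.

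**Figure D1:**
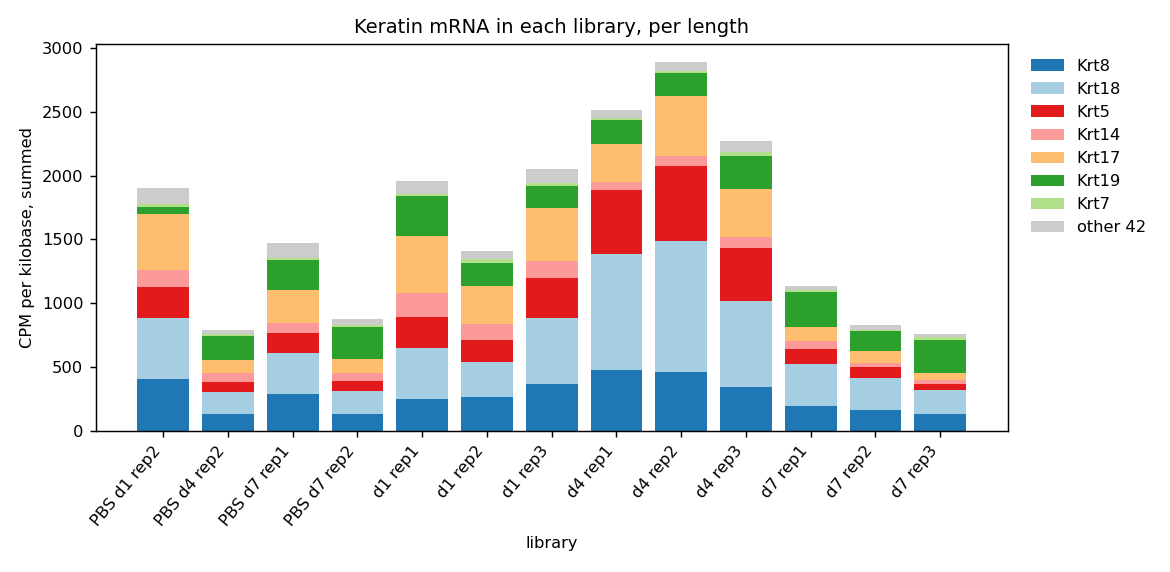
Each bar is 1 library, and its height is the summed keratin CPM per kilobase of exon, divided among 7 abundant keratins and the other 42 members. The sums ranged from 2273 to 2887 on day 4 and from 762 to 1134 on day 7, and the Krt18 and Krt5 parts of the bars are widest on day 4.

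The basal keratins Krt5 and Krt14, which form a pair in stratified epithelium and mark mTECs, took different courses after TBI. Krt5 was at 524, 160, 338 and 170 CPM in the 4 steady-state libraries. On day 1, Krt5 was at 528, 377 and 690.3 CPM. Day 4 gave 1092, 1294 and 919 CPM, and day 7 gave 247, 190 and 104 CPM. All day 4 libraries lay above all others, and the day 7 libraries overlapped steady state. Krt5 differed among the 4 conditions (edgeR adjusted p = 0.0110) and fell from day 4 to day 7, with a log2 fold change of -2.61 ± 0.47 (SE) and an adjusted p of 0.0135, a call kept under 12 of 18 alternative settings (adjusted p from 1.07e-06 to 0.948). Its difference between day 4 and steady state was 1.89 ± 0.42 on the log2 scale with an adjusted p of 0.0903, and it passed the threshold under 3 of 17 alternatives (adjusted p from 0.000765 to 1.0).

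Krt14 was at 234, 125, 144 and 101 CPM at steady state, and at 332, 230 and 237 CPM on day 1. On day 4 it was at 108, 139 and 153 CPM, and on day 7 at 116, 59.7 and 54.5 CPM. The day 1 libraries lay above those of days 4 and 7, and unlike Krt5 the day 4 libraries lay within the steady-state range. Krt14 differed among the conditions (adjusted p = 0.0346) and fell from day 1 to day 7 by a log2 fold change of -1.79 ± 0.36 (adjusted p = 0.0115), a call that 14 of 18 alternatives kept (adjusted p from 6.33e-05 to 0.466). Against steady state its log2 difference was 0.81 ± 0.32 on day 1 (adjusted p = 0.221) and -0.98 ± 0.33 on day 7 (adjusted p = 0.189).

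Krt17, a type I keratin of basal cells that is induced in wounded and stressed epithelium, overlapped Krt5 and Krt8 in level per kilobase at steady state. It was at 687, 164, 403 and 173 CPM at steady state and at 692, 455 and 633 CPM on day 1. Day 4 gave 463, 722 and 579 CPM and day 7 gave 169, 143 and 82.8 CPM. The day 1 and day 4 libraries overlapped each other and the upper steady-state libraries, and the day 7 libraries lay below all of days 1 and 4. Krt17 fell from day 1 to day 7 (log2 fold change -2.17 ± 0.50, adjusted p = 0.0206) and from day 4 to day 7 (-2.16 ± 0.50, adjusted p = 0.0330), and 10 of 18 alternatives kept each call (adjusted p up to 0.503 and 0.956). Krt16, a related wound keratin of suprabasal cells, stood at 6.30 to 17.9 CPM at steady state, 14.1 to 36.3 CPM on day 1, 14.4 to 31.5 CPM on day 4 and 2.66 to 5.35 CPM on day 7, and fell in the same comparisons (-2.62 ± 0.52 with adjusted p = 0.0117, and -2.54 ± 0.52 with adjusted p = 0.0215), calls kept under 16 and 11 of 18 alternatives. Both genes have close relatives in sequence in the keratin clusters, Krt14 among them, and reads that map to several places were not counted, so their absolute levels are uncertain. The 4 basal keratins tested (Krt5, Krt14, Krt15 and Krt17) were all lower on day 7 than on day 1 with no overlap, beside 14.8% of all genes, and Krt14 and Krt17 were called, beside 4.45% of all genes called lower.

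**Figure D2:**
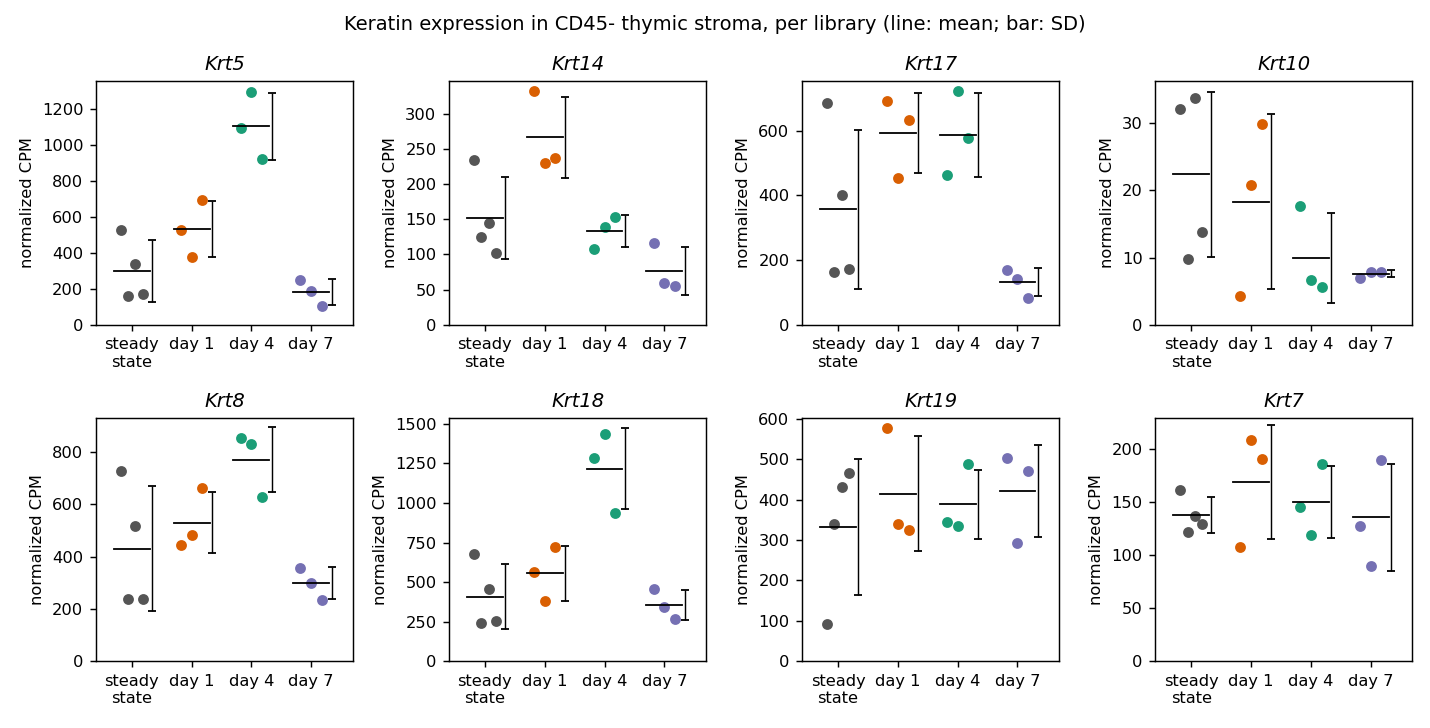
Each point is the normalized CPM of a keratin in 1 library at steady state (4 libraries) or on days 1, 4 and 7 after TBI (3 libraries each), with the mean as a line and the SD as a bar, on axes that start at 0. Krt5 and Krt18 are highest on day 4, and Krt19 and Krt7 show overlapping groups throughout. Krt14 has its highest mean on day 1 and Krt17 its higher means on days 1 and 4, but both overlap steady state on these days.

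Among simple keratins, Krt8 was at 727, 238, 515 and 236 CPM at steady state and at 445, 481 and 662 CPM on day 1. It was at 854, 829 and 626 CPM on day 4 and at 357, 300.3 and 235 CPM on day 7. The day 4 libraries overlapped steady state, and Krt8 was called in no comparison (day 7 against day 4, log2 fold change -1.37 ± 0.40, adjusted p = 0.0774; among the 4 conditions, adjusted p = 0.149). Krt18, its partner, was at 678, 244, 454 and 256 CPM at steady state and at 565, 378 and 725 CPM on day 1. On day 4, Krt18 was at 1280, 1436 and 934 CPM, above every other library, and on day 7 it was back at 459, 341 and 269 CPM, within the steady-state range. Krt18 differed among the conditions (adjusted p = 0.0300) and fell from day 4 to day 7 (-1.77 ± 0.40, adjusted p = 0.0317), a call kept under 9 of 18 alternatives (adjusted p from 0.000355 to 0.956). Its day 4 difference from steady state was 1.58 ± 0.37 with an adjusted p of 0.112, past the threshold under 3 of 17 alternatives (adjusted p from 0.00181 to 1.0).

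Markers of the cTECs moved beside these values. Psmb11, the thymoproteasome subunit of cTECs, was at 1.8, 1.6 and 88.0 CPM on day 1 and at 269, 267 and 163 CPM on day 4, against 46.2 to 173 CPM at steady state. All 6 cTEC markers had a fold change above 0 from day 1 to day 4. Of them only Ctsl, which encodes a protease, was called, beside 0.355% of all genes called higher. Their summed level was 2133 to 2696 CPM at steady state, 1101 to 1914 on day 1, 2634 to 4122 on day 4 and 1569 to 2294 on day 7. Ctsl made up most of this sum, with means of 1552, 1039, 2232 and 1293 CPM in the same order. On day 1 it stood at 991 and 961 CPM in the libraries where Psmb11 was at 1.8 and 1.6 CPM. Which cells the Ctsl RNA came from was not tested. The summed level of 7 mTEC markers was 204 to 552 CPM at steady state, 359 to 424 on day 1, 346 to 386 on day 4 and 177 to 294 on day 7. Its members moved differently. In the same order, mean Aire was 21.3, 8.0, 3.9 and 1.7 CPM and mean Ly6d was 64.2, 93.3, 89.7 and 100 CPM. Ly6d reached 194 CPM in day 7 replicate 2, the library highest in Ptprc. The part of cTECs and mTECs in the keratin values was not tested.

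Krt19 and Krt7 were called in no comparison. Krt19 was at 92.8, 340, 432 and 465 CPM at steady state, with means of 414, 389 and 422 CPM on days 1, 4 and 7, and Krt7 was at 122 to 161, 108 to 208, 118 to 186 and 89.9 to 189 CPM over the time course. Their log2 fold changes lay between -0.32 and 0.34 in all comparisons, with adjusted p of 0.899 and 0.802 among the conditions. Upk3b, a mesothelial membrane protein, was at 213, 955, 1619 and 1929 CPM in the same 4 steady-state libraries, so that the library lowest in Krt19 was also lowest in Upk3b. The 5 mesothelial markers summed to 555 to 4181 CPM at steady state, 1425 to 1776 on day 1, 2580 to 3584 on day 4 and 1905 to 3736 on day 7, none of them was called in any comparison, and their part in Krt7 and Krt19 was not tested. Krt20, the remaining simple keratin, which is known from gut epithelium and Merkel cells, was at 6.59 to 40.2 CPM at steady state and 4.32 to 5.76 CPM on day 4 without overlap, at an adjusted p of 0.220.

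The ratio of 2 genes within a library is not moved by an equal change of both, and 8 such ratios of CPM were compared among the 4 conditions by an exact permutation test over all 1201200 assignments of the labels, with p adjusted over the 8 ratios. The ratios were not scaled by gene length and are read only between libraries. The Krt5/Krt14 ratio was 2.23, 1.27, 2.34 and 1.68 at steady state, and 1.59, 1.64 and 2.92 on day 1. On day 4 it was 10.1, 9.29 and 5.98, and on day 7 it was 2.13, 3.16 and 1.90. Every day 4 library lay above every other library, and the remaining groups overlapped each other. The mean log2 ratio was 0.87 ± 0.407 (SD, n = 4), 0.98 ± 0.492 (n = 3), 3.04 ± 0.404 and 1.23 ± 0.387 in the order of the time course (exact permutation p = 0.00584, adjusted p = 0.0129), and the geometric mean ratio on day 4 was 4.51 times that at steady state. Without day 1 replicate 1 and day 4 replicates 2 and 3, the libraries low in Epcam, the adjusted exact p was 0.0756 with 1 day 4 library left, and with ranks in place of the log2 ratios it was 0.0711. The tags that end the column names of the table fall into 3 families of unstated meaning: k3, kk and those with neither tag. Epcam was at 99.8 to 155 CPM in every library with neither tag and at 14.0 to 40.1 CPM in every k3 or kk library. The tag and Epcam thus split the libraries alike, and their parts cannot be told apart. Day 7 holds only k3 and kk libraries, while the other conditions also hold libraries with neither tag. Within k3 the Krt5/Krt14 ratio was 5.98 to 9.29 on day 4 against 1.27 at steady state. Among libraries with neither tag it was 10.1 against 2.23 to 2.34. The Krt5/Krt8 ratio was 1.47 to 1.56 against 0.673 within k3, and 1.28 against 0.657 to 0.720 with neither tag.

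The Krt5/Krt8 ratio was 0.720, 0.673, 0.657 and 0.721 at steady state, a narrow range although the level of each gene varied by more than 3 times among these libraries. On day 1 it was 1.19, 0.785 and 1.04, on day 4 it was 1.28, 1.56 and 1.47, and on day 7 it was 0.693, 0.633 and 0.444. Days 1 and 4 lay above steady state without overlap, day 4 lay above day 1, and day 7 overlapped steady state (exact permutation p = 3.5e-05, adjusted p = 0.00028). The Krt14/Krt18 ratio went the other way, from 0.346, 0.514, 0.319 and 0.397 at steady state and 0.587, 0.608 and 0.327 on day 1 to 0.0849, 0.0970 and 0.165 on day 4 and 0.253, 0.176 and 0.204 on day 7. Both later groups lay below steady state and did not overlap each other (exact permutation p = 0.0002, adjusted p = 0.000799). Both of these calls held with each library left out in turn. Without the 3 libraries low in Epcam, 1 day 4 library is left, at ratios of 1.28 and 0.0849. It cannot show whether the calls hold without them.

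Krt8 and Krt18, the chains of 1 filament pair, did not keep a fixed ratio. The Krt8/Krt18 ratio was between 0.923 and 1.14 at steady state, between 0.788 and 1.27 on day 1, at 0.667, 0.577 and 0.671 on day 4 and at 0.777, 0.881 and 0.872 on day 7 (exact permutation p = 0.00645, adjusted p = 0.0129). Day 4 lay below all other libraries. The adjusted exact p was 0.0640 without day 4 replicate 2 and 0.0618 without the 3 libraries low in Epcam. Relative to Epcam itself, neither Krt8 (adjusted exact p = 0.169) nor Krt5 (adjusted exact p = 0.0515) passed the threshold. These became 0.0268 and 0.0246 without day 1 replicate 1, and Krt5/Epcam was also at 0.0405 without day 1 replicate 2 and 0.0353 without day 4 replicate 1.

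**Figure D3:**
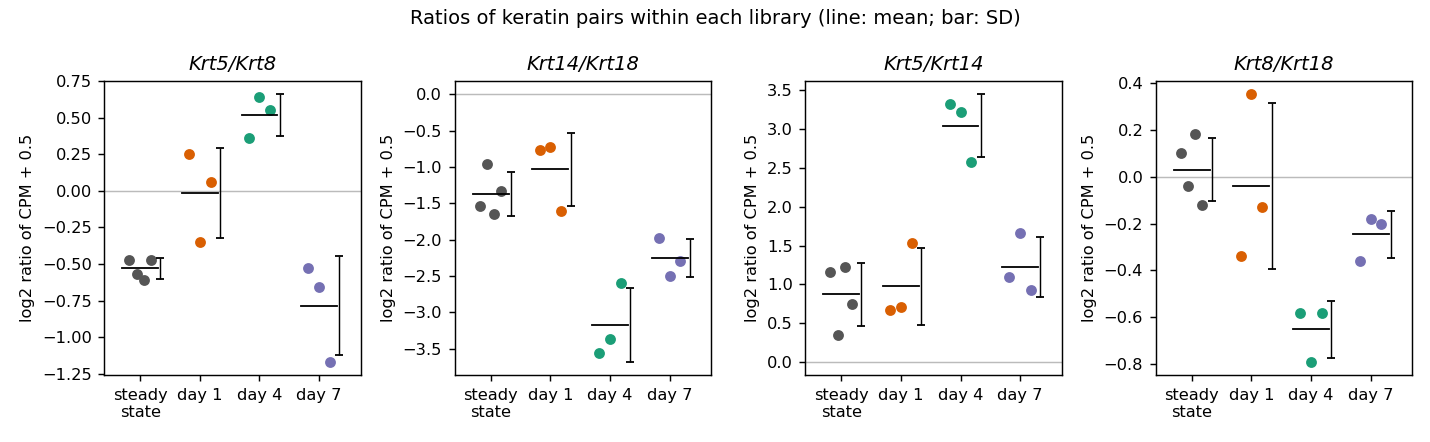
Each point is the log2 ratio of 2 keratins, each as CPM plus 0.5, in 1 library, with the mean as a line and the SD as a bar for each condition. Krt5/Krt8 and Krt5/Krt14 are highest and Krt14/Krt18 and Krt8/Krt18 lowest on day 4.

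Among cornified and suprabasal epidermal keratins, Krt10 was at 32.1, 9.83, 33.8 and 13.8 CPM at steady state and at 4.24, 20.9 and 29.9 CPM on day 1. It was at 17.6, 6.60 and 5.55 CPM on day 4 and at 6.97, 7.91 and 7.89 CPM on day 7. The day 7 libraries lay below all of steady state, and the low libraries of days 1 and 4 were those low in Epcam. Krt10 was called in no comparison (day 7 against steady state, log2 fold change -1.56 ± 0.63, adjusted p = 0.282). Krt1, its type II partner, ranged from 3.18 to 25.4 CPM at steady state and from 0.635 to 2.77 CPM on day 7 (-2.49 ± 0.88, adjusted p = 0.210), and Krt77 from 5.67 to 26.4 CPM and from 3.04 to 4.78 CPM (-1.94 ± 0.61, adjusted p = 0.162). The Krt1/Krt10 ratio did not pass the test (exact permutation p = 0.633), with geometric means of 0.430, 0.366, 0.411 and 0.278 over the time course. All 7 cornified keratins tested had a fold change below 0 from steady state to day 7, 4 of them without overlap (4.67% of all genes lay lower without overlap), and none was called. Krt2, among these 4, rests on few counts, with 4 to 33 per library at steady state and 1 to 4 on day 7. Krt9, which overlapped, had 0 to 3 on day 7.

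Set against Krt5 in the same library, Krt10 was at 0.0623, 0.0645, 0.101 and 0.0834 at steady state and at 0.00897, 0.0565 and 0.0439 on day 1. On day 4 the ratio was 0.0166, 0.00549 and 0.00659, and on day 7 it was 0.0302, 0.0442 and 0.0803. Days 1 and 4 lay below steady state without overlap, and the day 4 geometric mean was 0.111 times that at steady state (exact permutation p = 0.0145, adjusted p = 0.0232). The adjusted exact p was 0.0640 without day 4 replicate 2, 0.0595 without day 4 replicate 3 and 0.0618 without the 3 libraries low in Epcam.

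The remaining keratins were low, and several fell to day 7. Krt24, a keratin of differentiated keratinocytes, had 63, 11, 14 and 2 counts at steady state, 46, 9 and 49 on day 1, 9, 24 and 12 on day 4, and 0, 0 and 1 on day 7. From its summed counts the level was 134 times higher on day 1 than on day 7 (95% counting interval 23.5 to 5328) and 47.8 times higher on day 4 (8.16 to 1931), and Krt24 fell in both comparisons (adjusted p = 0.00963 and 0.0383), calls kept under 15 and 7 of 17 alternatives (adjusted p up to 0.293 and 0.956). Krt71, a keratin of the inner root sheath, had 6 to 32 counts per library on day 4 and 0 to 4 on day 7, and fell from day 1 to day 7 (log2 fold change -5.42 ± 1.02, adjusted p = 0.00946). The hair keratins Krt81 (-3.44 ± 0.72, adjusted p = 0.0144) and Krt84 (-3.81 ± 0.79, adjusted p = 0.0134), the root sheath keratin Krt75 (-2.11 ± 0.49, adjusted p = 0.0213) and the corneal keratin Krt12 (-3.87 ± 0.91, adjusted p = 0.0221) also fell. The call of Krt12 was kept under 9 of 16 alternatives, that of Krt75 under 11 of 18, and those of Krt71, Krt81 and Krt84 under 14, 12 and 13 of 17. For Krt12, 54.4% of exonic bases overlap a gene on the opposite strand. The counting did not use strand and left out reads that fall in several genes, so the Krt12 count misses reads from these bases. Krt23, a type I keratin that ranks ninth in level, was called in no comparison and was at 5.08 to 23.2, 13.1 to 25.4, 13.8 to 25.6 and 5.86 to 8.97 CPM over the time course.

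Across the family, no keratin was called on day 1 against steady state, where 2.35% of all 19984 genes tested were called by edgeR (3 keratins and 17.2% of all genes were at an unadjusted p under 0.05, and DESeq2 also called 0). Krt90 alone lay higher on day 1 without overlap, beside 7.25% of all genes. On day 4 against steady state 0 were called, beside 0.290% of all genes, with 9 keratins and 2602 of all genes at an unadjusted p under 0.05. DESeq2 called 3 keratins and 645 of all genes, where edgeR called 58 genes, and 2 keratins and 51 genes were called without the steady-state library PBS d1 rep2. Krt5 and Krt18 lay higher on day 4 without overlap (6.44% of all genes) and Krt20 lower (8.22%). On day 7 against steady state 0 were called, beside 0.00500% of all genes, with 25 and 13.5% at an unadjusted p under 0.05. DESeq2 called 13 keratins there and 1081 of all genes, against 1 gene by edgeR. Without the steady-state library PBS d4 rep2 edgeR called 5 keratins and 220 of all genes, and without day 7 replicate 1 it called 2 and 622. The median log2 fold change of the 39 keratins was 0.30, -0.18 and -1.66 in these comparisons, and that of all genes was -0.097, -0.126 and 0.002. On day 7, 37 of 39 keratins had a fold change below 0 against steady state and 14 of them did not overlap it, beside 4.67% of all genes. The steady-state libraries PBS d1 rep2 and PBS d7 rep1 have neither the k3 nor the kk tag, and day 7 holds no such library. Within k3, with 1 steady-state library, Krt5 was at 190 to 247 CPM on day 7 against 160. Krt18 was at 341 to 459.5 CPM against 244 there, and Krt17 at 143 to 169 against 164. Within kk, with 1 library each, the values were 104 against 170, 269 against 256, and 82.8 against 173 CPM. The part of the tag was not tested gene by gene.

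Between time points after TBI, day 4 against day 1 gave 0 keratins called beside 1.43% of all genes (7 and 13.7% at an unadjusted p under 0.05, and 0 by DESeq2), although 9 lay lower and 2 higher without overlap (13.7% and 12.6% of all genes). Day 7 against day 1 gave 9 keratins called, all lower, beside 8.13% of all genes called and 4.45% called lower, with a median log2 fold change of -1.75 over the keratins and 0.05 over all genes. Day 7 against day 4 gave 5, all lower (Krt5, Krt16, Krt17, Krt18 and Krt24), beside 3.90% called and 1.13% called lower, with medians of -1.34 and 0.111. These comparisons share the day 7 libraries, all of which are k3 or kk, while days 1 and 4 also hold libraries with neither tag. Within k3, Krt5 was at 190 to 247 CPM on day 7 against 919 to 1294 CPM on day 4. Krt18 was at 341 to 459.5 against 934 to 1436 CPM there, and Krt17 at 143 to 169 against 579 to 722 CPM. Within kk, with 1 library each, day 7 against day 1 gave 104 against 528, 269 against 565, and 82.8 against 692 CPM for these genes. No overlap was seen for 23 keratins between days 1 and 7 and for 19 between days 4 and 7, all lower on day 7, beside 14.8% and 14.0% of all genes. At an unadjusted p under 0.05 there were 23 keratins between days 1 and 7 (23.9% of all genes) and 17 between days 4 and 7 (18.7%). Among the 4 conditions 8 keratins differed, beside 6.66% of all genes, and 22 were at an unadjusted p under 0.05 (24.0%).

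Single libraries moved these counts. The 9 calls between days 1 and 7 became 5 without day 1 replicate 1 or day 7 replicate 2, 4 without day 7 replicate 3, 15 without the steady-state library PBS d1 rep2 and 14 without PBS d4 rep2. The count of all genes called, 1625 with all libraries, was 472, 527, 665, 2030 and 2043 in these fits. The 5 calls between days 4 and 7 became 0 without day 4 replicate 2 or replicate 3, 1 without day 7 replicate 2 or replicate 3, 3 without day 4 replicate 1 or day 1 replicate 3, 8 without PBS d1 rep2 and 9 without PBS d4 rep2. Of all genes 779 were called with all libraries, 15 and 20 without day 4 replicate 2 or 3, 142 and 244 without day 7 replicate 2 or 3, 455 without day 4 replicate 1, 523 without day 1 replicate 3, and 1065 and 985 without PBS d1 rep2 or PBS d4 rep2. The 8 genes that differed among the conditions became 2 without day 4 replicate 2 or day 7 replicate 3, 3 without day 1 replicate 3, day 4 replicate 3 or day 7 replicate 2, 4 without day 1 replicate 1, 5 without PBS d7 rep1 and 14 without PBS d4 rep2, while the count of all genes, 1330 with all libraries, ran from 677 to 1044 in the fits with fewer keratins and was 2030 without PBS d4 rep2. Leaving out day 7 replicates 2 and 3, the libraries with most Ptprc, left 1 library of day 7. Leaving out the 3 libraries low in Epcam left 1 library of day 4. These fits therefore cannot show whether the calls hold without those libraries. Between days 4 and 7, the log2 fold changes of Krt5 (-2.91 to -2.18) and Krt18 (-2.0 to -1.42) stayed below 0 under the 18 alternatives counted for them. Those of the other calls named above stayed below 0 under the alternatives counted for theirs.

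**Figure D4:**
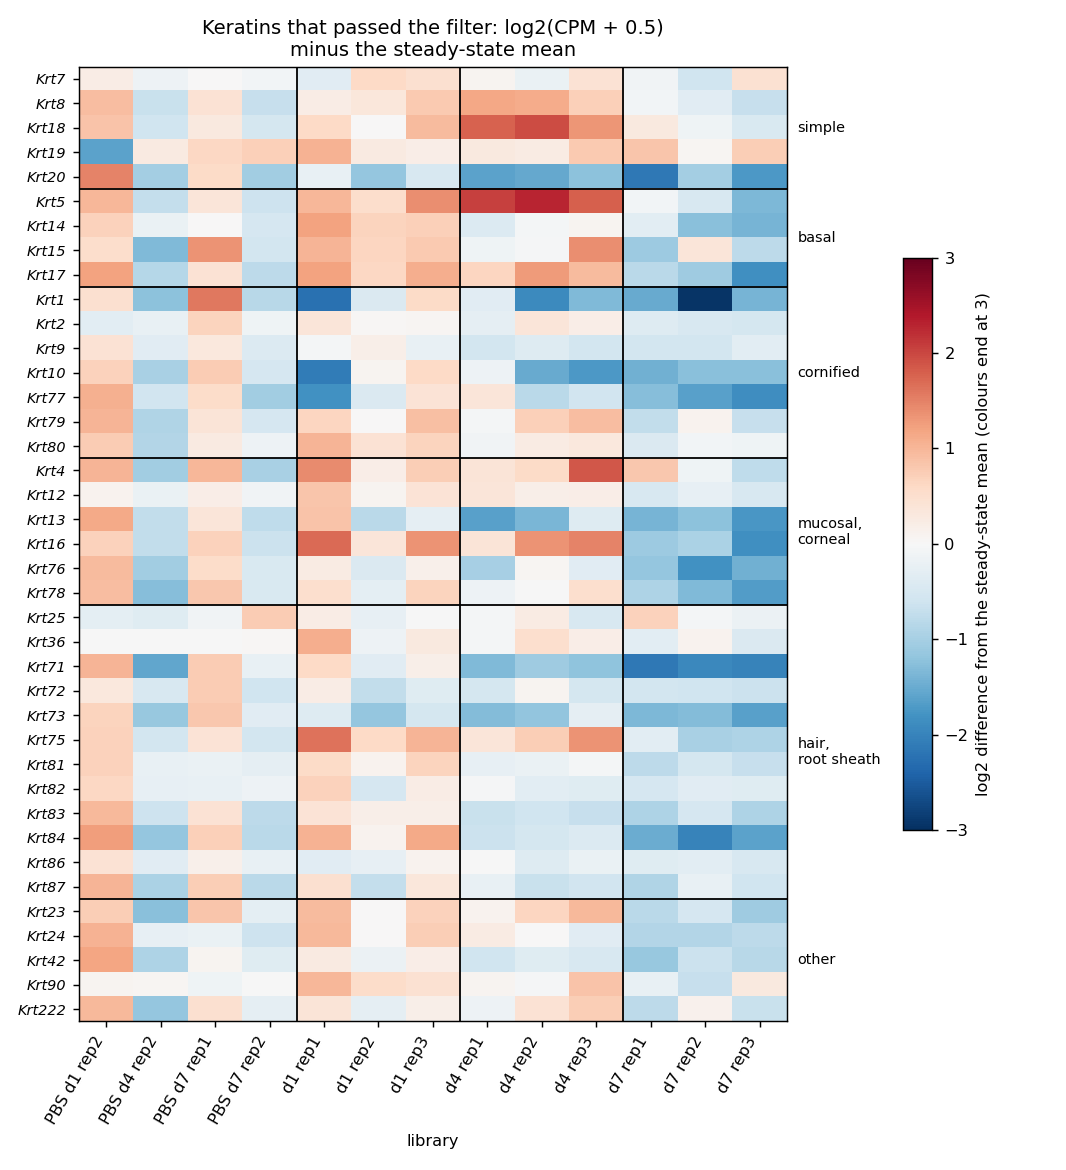
Rows are the 39 keratins that passed the filter, grouped by the epithelium they are known from, columns are the 13 libraries, and colour is log2(CPM + 0.5) minus the steady-state mean of the gene. Krt5 and Krt18 are red on day 4, the day 7 columns are blue for most rows (37 of 39 had a fitted fold change below 0 against steady state), and the steady-state columns PBS d1 rep2 and PBS d7 rep1 lie above the other steady-state columns for most keratins.

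Genes of the cornified envelope, the desmosome, epithelial regulation and other intermediate filaments were read from lists. These lists were chosen with earlier results of these data known, and the cornified envelope list also holds proteases. Of 19 genes of the cornified envelope tested, 8 were called lower on day 7 than on day 1 (median log2 fold change -1.73 over the list, 0.05 over all genes), beside 4.45% of all genes called lower. They included Asprv1, an epidermal protease, at 43.0 to 90.5 CPM on day 1 and 7.0 to 10.5 CPM on day 7 (-2.94 ± 0.56, adjusted p = 0.00971), Krtdap, a keratinocyte differentiation peptide (-2.49 ± 0.50, adjusted p = 0.0114), the transglutaminase Tgm3 (-3.71 ± 0.70, adjusted p = 0.00946) and the desquamation protease Klk7 (-2.33 ± 0.51, adjusted p = 0.0173). Tgm3 was near the floor, at 0.464 to 1.16 CPM on day 1 and 0.0410 to 0.0813 CPM on day 7, where 3 counts equal 0.0615 to 0.0813 CPM. From day 4 to day 7, 5 genes of the list were called lower, beside 1.13% of all genes. Of 12 genes of the desmosome, which ties keratin filaments to the junctions between cells, 2 were called lower in each of these comparisons (4.45% and 1.13% of all genes), and Dsc2, a desmosomal cadherin, was among them in both (-1.51 ± 0.41 with adjusted p = 0.0427, and -2.06 ± 0.42 with adjusted p = 0.0212).

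Of 10 transcription factors of epithelial differentiation, 3 were called lower on day 7 than on day 1 (Elf3, Ovol1 and Ehf, beside 4.45% of all genes) and Elf3 also against day 4 (-2.02 ± 0.51, adjusted p = 0.0455, beside 1.13% of all genes). No gene of these lists was called against steady state, and none of the 6 intermediate-filament genes of other tissues (Vim, Des, Nes, Prph, Gfap and Synm) was called in any comparison.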

How the data were processed

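Bulk RNA-seq of CD45- thymic stroma was analysed for 13 libraries: 4 at steady state and 3 on each of days 1, 4 and 7 after TBI. The authors used Trimmomatic 0.38 to trim paired-end reads, STAR 2.7.0e to align them to the GRCm38.p5 assembly (mm10, GENCODE M12) and featureCounts 1.6.3, at default settings, to obtain 1 value per gene. These settings count without regard to strand and leave out reads that map to several places or genes. The deposited values are raw read counts, as whole numbers, with no scaling between libraries. The table also holds the exonic length of each gene, used for CPM per kilobase. Symbols and positions came from GENCODE M21. Conditions came from the labels. The steady-state columns carry the day and replicate of PBS controls (PBS d1 rep2, PBS d4 rep2, PBS d7 rep1, PBS d7 rep2) but not the replicate numbers of the labels, so they were used as a group.

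All 13 libraries entered 1 edgeR 4.0.16 fit in R 4.3.3 with a term for condition, TMM normalization, filterByExpr() (19984 genes kept, common dispersion 0.177) and the quasi-likelihood F-test, adjusted by Benjamini-Hochberg over all genes. Genes with an adjusted p of 0.05 or less were called. The SE of a log2 fold change was its size divided by the square root of F. Ratios used CPM plus 0.5. Their test statistic was the share of variance between conditions, two-sided by construction. Levels are CPM with SDs over libraries. The interval of Krt24 covers counting error only. Named keratins are the 5 markers (Krt5, Krt8, Krt10, Krt14, Krt18), the 10 highest per kilobase and those called. Of the other lists at most 6 called genes are named. A further list of genes is not reported here. Krt1, Krt20, Krt77 and Krt90, and the ratios to Cdh1, were added after their values were seen. Members and lists were chosen with earlier results of these data known. Alternatives were DESeq2 1.42.0, RLE normalization, other filters, fewer conditions, the column tag or replicate number as a term, same-day PBS libraries, other pseudocounts, ranks and libraries left out. The alternatives counted for a gene hold only some of the fits with 1 library left out. These are the fits without a library of the 2 conditions compared, or without a PBS library of matching day and replicate number. The counts also hold the fits that left 1 library of day 7 or of day 4. The steps were tested on simulated data.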

Additional observations from a re-analysis of the deposited data

Results flagged for a closer look

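Over 24 values examined at steady state, 3 were flagged because 1 library lay far from the other 3, where chance flags about 1 in 20. Krt24 was at 1.38 CPM in PBS d1 rep2 and at 0.0969 to 0.301 CPM in the others. Krt81 was at 0.965 CPM in the same library and at 0.242 to 0.280 CPM in the others. The log2 Krt1/Krt10 ratio was -0.41 in PBS d7 rep1 and between -1.55 and -1.43 in the others.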

How the results depend on the processing

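In counts of keratins called, DESeq2 gave 3 on day 4 and 13 on day 7 against steady state, 18 for day 7 against day 1, 13 for day 7 against day 4 and 18 among the conditions, beside 645, 1081, 2940, 1919 and 3665 of all genes (58, 1, 1625, 779 and 1330 as reported). No filter gave 2, 7, 13, 8 and 13 in that order, beside 250, 627, 2004, 1265 and 2252. At least 10 counts in every library, a filter that tests fewer keratins, gave 4 for day 7 against day 1 and 4 among the conditions. Of all genes 880 and 828 were called. Only the 2 conditions compared gave 1 for day 4 against day 1 (258 of all genes, against 285). The column tag gave 3 for day 7 against day 1, 2 for day 7 against day 4 and 2 among the conditions (1416, 854 and 1179 of all genes). The cause of these shifts was not tested. With single libraries left out, counts ran from 0 to 2 (day 4) and 0 to 5 (day 7) against steady state, 4 to 15 for day 7 against day 1, 0 to 9 for day 7 against day 4 and 2 to 14 among the conditions. The alternatives without day 7 replicates 2 and 3, or without the libraries low in Epcam, were chosen after seeing the data. They left 1 library of day 7 or of day 4, so their counts of calls are not read.

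The replicate numbers did not pair the libraries: deviations of same-numbered libraries had a mean correlation of -0.123 (21 pairs, -0.843 to 0.356) and those of others 0.0531 (42 pairs), and 1 of 13 libraries correlated best with its own number. With the replicate block, day 7 against day 1 gave 7 calls, day 7 against day 4 gave 0 and the 4 conditions gave 1 (655, 95 and 476 of all genes).

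For the ratios, the adjusted exact p of Krt5/Krt14 was 0.0711 with ranks and 0.0756 without the libraries low in Epcam, that of Krt8/Krt18 and of Krt10/Krt5 was 0.0618 without them, and that of Krt5/Epcam was 0.0441 with a pseudocount of 2 CPM. With libraries left out in turn it ran from 0.00052 to 0.00661 (Krt5/Krt8), 0.000924 to 0.00589 (Krt14/Krt18), 0.00795 to 0.0255 (Krt5/Krt14), 0.00248 to 0.0640 (Krt8/Krt18), 0.00687 to 0.0640 (Krt10/Krt5), 0.0246 to 0.173 (Krt5/Epcam), 0.0268 to 0.375 (Krt8/Epcam) and 0.422 to 0.953 (Krt1/Krt10).

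Log2 fold changes that turned sign were all uncalled. With same-day PBS libraries, Krt8 and Krt18 on day 1 against steady state were -0.46 and -0.29, Krt14 and Krt10 on day 4 were 0.09 and 0.0, and Krt18 on day 7 was 0.01. Krt14 on day 4 was 0.20 without PBS d1 rep2 and 0.08 without day 4 replicate 1 (lowest with 1 library left out -0.33). Krt18 on day 7 was 0.09 with the column tag, 0.16 without PBS d1 rep2, 0.02 without day 7 replicate 3 and 0.20 without day 7 replicates 2 and 3 (lowest with 1 library left out -0.42). Krt10 on day 1 was 0.05 without PBS d7 rep1, 0.18 without day 1 replicate 1 and 0.20 without the libraries low in Epcam (lowest with 1 left out -0.84). On day 7, Krt10 was 0.26 against day 1 and 0.40 against day 4 with the column tag, and 0.22 against day 4 without day 4 replicate 1 (lowest with 1 left out -0.67). Depth limits the keratins under 1 CPM, whose calls rest on few counts.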

Other observations

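Cdh1 (E-cadherin) was among the epithelial genes that stood at like levels in day 1 and day 4 libraries that differed in Epcam, and keratins were set against it after their values were seen, as a description. Cdh1 itself was called lower on day 7 than on day 1 (log2 fold change -1.74 ± 0.41, adjusted p = 0.0223) and day 4 (-1.89 ± 0.41, adjusted p = 0.0269). The log2 ratio of Krt8 to Cdh1 was 1.71 ± 0.0893 (SD, n = 4) at steady state, 1.40 ± 0.117 (n = 3) on day 1, 1.80 ± 0.206 on day 4 and 2.31 ± 0.0912 on day 7, where the libraries (2.25 to 2.41) lay above all others. Krt18 to Cdh1 was 1.68 ± 0.223, 1.45 ± 0.395, 2.45 ± 0.324 and 2.56 ± 0.191 in the same order, so that the day 7 libraries lay above steady state although the CPM of Krt18 overlapped it. Krt5 to Cdh1 was 1.18 ± 0.130, 1.39 ± 0.348, 2.32 ± 0.300 and 1.52 ± 0.410, and Krt14 to Cdh1 was 0.31 ± 0.494, 0.41 ± 0.444, -0.72 ± 0.422 and 0.30 ± 0.444. Krt14 was thus lowest relative to Cdh1 on day 4, when its CPM was within the steady-state range. Krt17 to Cdh1 ranged between group means of 1.09 and 1.57 with overlapping libraries. Krt10 to Cdh1 was -2.53 ± 0.294, -3.76 ± 1.27, -4.57 ± 0.688 and -2.87 ± 0.303, and its day 7 libraries (-3.17 to -2.56) overlapped steady state (-2.82 to -2.26) although the CPM of Krt10 lay below it.

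Ccl21a, a chemokine of mTECs, and Cldn4, a claudin of mTECs, were the 2 of 7 mTEC markers called lower on day 7 than on day 1. Of all genes, 4.45% were called lower there, the basal keratins Krt14 and Krt17 among them. Aire, the transcription factor of mature mTECs, was at 3.0 to 59.0 CPM at steady state and at 0.8 to 2.9 CPM on day 7, and was not called.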
